A study of Mus musculus with 8 samples.

Results

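The miR-15/16 family of mouse microRNAs was described here in Kupffer cells, macrophages that reside in the liver. Its members were every deposited entry whose name equals or starts with mmu-miR-15a, mmu-miR-15b, mmu-miR-16, mmu-miR-195a or mmu-miR-497a, in any arm, which gave 10 of the 1234 entries in the table. Of these 10 entries, 9 passed the filter on low counts and miR-195a-3p did not. The table held 565 entries with mouse names in all.

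The small RNA libraries came from flow-sorted Kupffer cells of male mice, with 1 µg of total RNA per library and the Illumina TruSeq small RNA kit. The knockout group (KO) was 4 mice deficient in Trem2, a lipid-binding receptor of macrophages, numbered 88, 90, 40 and 46. The wild-type group (WT) was 4 littermate mice numbered 80, 82, 35 and 37. Mice of both groups were 8 weeks old when the diet began and had 8 weeks of high-fat diet, so neither group was on a control diet. The numbers fall into 2 ranges, 80 to 90 and 35 to 46, with 2 KO and 2 WT mice in each, and the labels do not say what a range stands for.

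The microRNAs of this family share a seed, the stretch near the 5′ end that pairs with target messenger RNAs, and they are known to lower the output of genes that drive the cell cycle and cell survival, such as cyclins and Bcl2. They are made from pairs of hairpins transcribed together: miR-15a with miR-16-1, miR-15b with miR-16-2, and miR-497a with miR-195a. Each hairpin gives a 5p and a 3p arm, and in this family the 5p arm is the one that carries the family seed.

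The mature 5p sequences below, from RefSeq (GRCm38.p6), show what the members share and where they differ. Capitals mark the seed, bases 2 to 8.

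miR-15a-5p: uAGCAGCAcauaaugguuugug

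miR-15b-5p: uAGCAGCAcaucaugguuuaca

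miR-16-5p: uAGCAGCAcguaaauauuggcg

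miR-195a-5p: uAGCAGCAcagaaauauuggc

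miR-497a-5p: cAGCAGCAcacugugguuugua

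All 5 carry the seed AGCAGCA. Over the positions compared, seed included, miR-15a-5p resembled miR-15b-5p, with 18 of 22 bases the same. In the same way miR-16-5p resembled miR-195a-5p, with 19 of 21 bases the same. Counted from the 5′ end, with T written for U, the substitutions were A12C, G20A, T21C and G22A between miR-15a-5p and miR-15b-5p, and G10A and T11G between miR-16-5p and miR-195a-5p. miR-497a-5p shared 17 of 22 bases with miR-15a-5p and 11 of 22 with miR-16-5p.

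The 3p arms have seeds of their own, and the 3 shown are those whose levels are followed most closely in the results. Capitals again mark bases 2 to 8.

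miR-16-1-3p: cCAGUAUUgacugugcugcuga

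miR-15a-3p: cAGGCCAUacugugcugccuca

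miR-15b-3p: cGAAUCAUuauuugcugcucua

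On GRCm38.p6, miR-15a-5p lies on the minus strand at chr14:61632075-61632096 and miR-16-5p of the same pair at chr14:61631936-61631957, both in an intron of the long non-coding RNA gene Dleu2. The miR-15b-5p sequence lies on the plus strand at chr3:69009775-69009796 and the second miR-16-5p copy at chr3:69009918-69009939, both in an intron of Smc4, a gene for a condensin subunit. The miR-497a-5p and miR-195a-5p sequences lie on the plus strand at chr11:70234730-70234751 and chr11:70235062-70235082, where GENCODE M21 lists no other gene. miR-16-5p is the same sequence from both loci, so its counts cannot be split between the chromosome 14 and chromosome 3 pairs, whereas the 3p arms miR-16-1-3p and miR-16-2-3p can be told apart.

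Several deposited entries differed from the RefSeq mature form at the 3′ end. The entries of miR-15a-5p, miR-195a-5p, miR-16-1-3p and miR-195a-3p were longer by 1 base, those of miR-497a-5p and miR-15b-3p were shorter by 1, and that of miR-15a-3p carried A22T. The deposited sequences of miR-15a-5p and miR-15a-3p were not found in any RefSeq mouse hairpin, whereas those of the other members were. No member shared its deposited sequence with another entry.

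Total counts per library ranged from 2129942 to 9443992, and a level of 3 counts corresponded to 0.318 to 1.41 CPM, which are counts scaled to a common library total. Levels are CPM further scaled with TMM factors, which adjust for differences in composition between libraries. The TREM2 protein's messenger RNA is not read by small RNA libraries, so the deletion could not be checked in them. For the labelled cell type, all 12 entries of 6 myeloid microRNA stems passed the filter. Among them miR-142a-5p, which is specific to blood-lineage cells, lay between 11664 and 30235 CPM in the 8 libraries. Passing the filter does not identify a cell type, since all 5 erythroid, 2 endothelial, 9 stellate or mesenchymal and 6 epithelial entries passed too. The hepatocyte microRNA miR-122-5p lay between 5439 and 115496 CPM. It exceeded miR-142a-5p in WT animal 37, at 115496 against 11664 CPM, and in KO animal 40, at 32404 against 14388 CPM. In bulk libraries such as these, fewer cells of a type and less RNA per cell cannot be told apart.

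Family entries took 1.61% and 1.66% of all counts in KO animals 88 and 90, and 0.707% and 0.547% in KO animals 40 and 46. In WT they took 1.38% and 1.46% in animals 80 and 82, and 0.88% and 0.53% in animals 35 and 37. Both genotypes held a pair of libraries with a high share and a pair with a low share, and the high pair was in the 80 to 90 range each time. The widest 95% Wilson interval among the 8 libraries, which covers counting error only, was 1.59% to 1.62% in KO animal 88.

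Most of the family signal was miR-16-5p, which took 61.9% to 70.9% of the summed family level in every library. It was followed by miR-15a-5p with 14.1% to 28.5% and by miR-15b-5p with 2.15% to 14.3%. The other 7 entries, miR-195a-5p, miR-497a-5p and the 3p arms, each took less than 3% in any library. The summed family level was 10959 ± 5280.1 CPM in KO and 10616 ± 4258 CPM in WT (SD, n = 4 each), a log2 ratio of the means of 0.05. With 1 library left out, that log2 ratio ran from -0.25 to 0.31, so its sign depended on single libraries. No p is given for this sum.

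**Figure D1:**
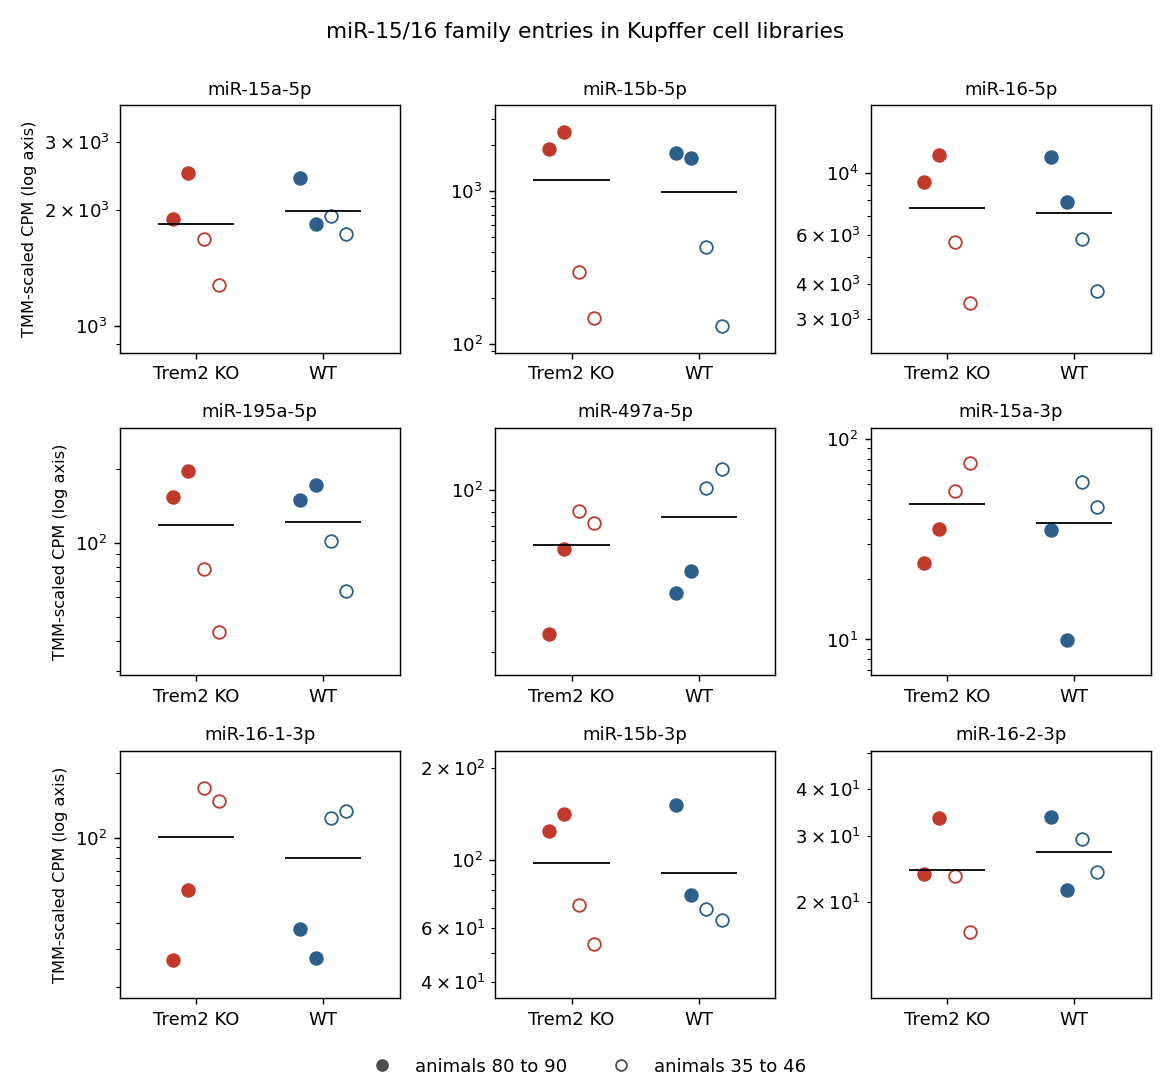
TMM-scaled CPM on a log axis for the 9 tested family entries, with 1 point per library, KO on the left and WT on the right, filled for animals 80 to 90 and open for animals 35 to 46; the bar is the mean of 4 libraries. KO and WT overlap in every panel, while filled and open points separate in 7 of the 9, all but miR-15a-5p and miR-16-2-3p.

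The study compared Kupffer cells lacking Trem2 with those of littermates, and no family entry was called different between KO and WT. The test was edgeR's quasi-likelihood test on the whole table of 627 entries with Benjamini-Hochberg adjustment. It called 0 of 9 family entries and 0% of all tested entries, with 2 of the 627 at an unadjusted p below 0.05. DESeq2 and limma-trend, run as alternatives, also called 0, with 6 and 3 entries at an unadjusted p below 0.05. The adjusted p from edgeR was 0.997 for each of the 9 family entries. KO and WT levels overlapped for all 9, and over all tested entries the genotypes did not overlap for 0.797%, 0.319% with KO higher and 0.478% with KO lower. Among the 9, 5 had a log2 difference above 0 and 4 below, with a median of 0.06, against a median of -0.04 over all tested entries.

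For miR-16-5p, KO animals 88, 90, 40 and 46 had 9291, 11578, 5648 and 3418 CPM, against 11350.0, 7867, 5798 and 3782 CPM in WT animals 80, 82, 35 and 37. The lowest and the highest library were both KO. Its log2 difference between KO and WT was 0.06 ± 0.45 (SE), with a 95% interval from -0.95 to 1.06.

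miR-15a-5p, its partner from the Dleu2 intron, had 1894, 2489, 1681 and 1279.8 CPM in KO animals 88, 90, 40 and 46, against 2428, 1843, 1935 and 1738 CPM in WT animals 80, 82, 35 and 37. The WT values lay within the KO range, and the log2 difference was -0.11 ± 0.29, with a 95% interval from -0.76 to 0.54. It had the narrowest interval of the family.

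miR-15b-5p, from the Smc4 intron, had 1888, 2435, 296 and 148 CPM in KO animals 88, 90, 40 and 46, against 1778, 1642, 431 and 131 CPM in WT animals 80, 82, 35 and 37. Each genotype split into a high and a low pair, and the KO and WT pairs of the same number range lay close together. The log2 difference was 0.26 ± 0.96 and its 95% interval, from -1.88 to 2.40, was the widest of the family. That fit left the number range out, and with the range as a block the log2 difference was 0.00 ± 0.38, with a 95% interval from -0.85 to 0.85.

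The remaining seed-bearing members, miR-195a-5p and miR-497a-5p, averaged 118 ± 69.4 and 57.9 ± 25.0 CPM in KO, against 122 ± 48.2 and 76.5 ± 42.9 CPM in WT (SD, n = 4 each). Their log2 differences were -0.05 ± 0.53 and -0.40 ± 0.54. The 95% interval of miR-497a-5p ran from -1.61 to 0.81.

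For the 3p arms, too, the genotypes overlapped. Their log2 differences between KO and WT were 0.33 ± 0.70 for miR-16-1-3p, 0.32 ± 0.59 for miR-15a-3p, 0.11 ± 0.46 for miR-15b-3p and -0.15 ± 0.42 for miR-16-2-3p. miR-195a-3p, which was not tested, had 0, 25, 0 and 5 counts in KO animals 88, 90, 40 and 46, against 19, 0, 0 and 7 counts in WT animals 80, 82, 35 and 37.

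The genotype difference was also set against the number ranges. With the range as a block, edgeR called 0 of 627 entries, and 17 had an unadjusted p below 0.05. The blocked log2 differences between KO and WT were 0.02 ± 0.24 for miR-16-5p, -0.14 ± 0.20 for miR-15a-5p, -0.16 ± 0.29 for miR-195a-5p and -0.29 ± 0.32 for miR-497a-5p. For the 3p arms they were 0.35 ± 0.29 for miR-16-1-3p, 0.34 ± 0.41 for miR-15a-3p, 0.06 ± 0.28 for miR-15b-3p and -0.17 ± 0.35 for miR-16-2-3p. All 9 blocked intervals included 0, and the adjusted p from edgeR was 0.946 to 0.997. The interaction of genotype and range passed for 0 of 9 family entries and 0% of all tested entries by edgeR, with 30 entries at an unadjusted p below 0.05. Among family entries the interaction's adjusted p was 0.996 throughout. Its 95% interval for miR-15b-5p ran from -1.05 to 2.41 in log2 units.

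Between the number ranges the family differed widely, and in both directions. In animals 80 to 90, miR-15b-5p, miR-16-5p, miR-195a-5p and miR-15b-3p rose relative to animals 35 to 46, miR-16-1-3p and miR-497a-5p fell, and the remaining 3 tested entries did not pass. The edgeR fit had genotype and range as terms, and it called 32.4% of all 627 entries at an adjusted p below 0.05, 16.6% higher and 15.8% lower in animals 80 to 90. Family levels did not overlap between the ranges for 7 of 9 entries, against 41.1% of all tested entries. Of the 7, 4 were higher in animals 80 to 90, against 21.4% of all tested entries, and 3 were lower, against 19.8%. The median log2 difference was 0.39 over the 9 family entries and -0.04 over all tested entries. As the members and the ranges were taken up with earlier results known, these counts describe the family and do not set it apart.

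**Figure D2:**
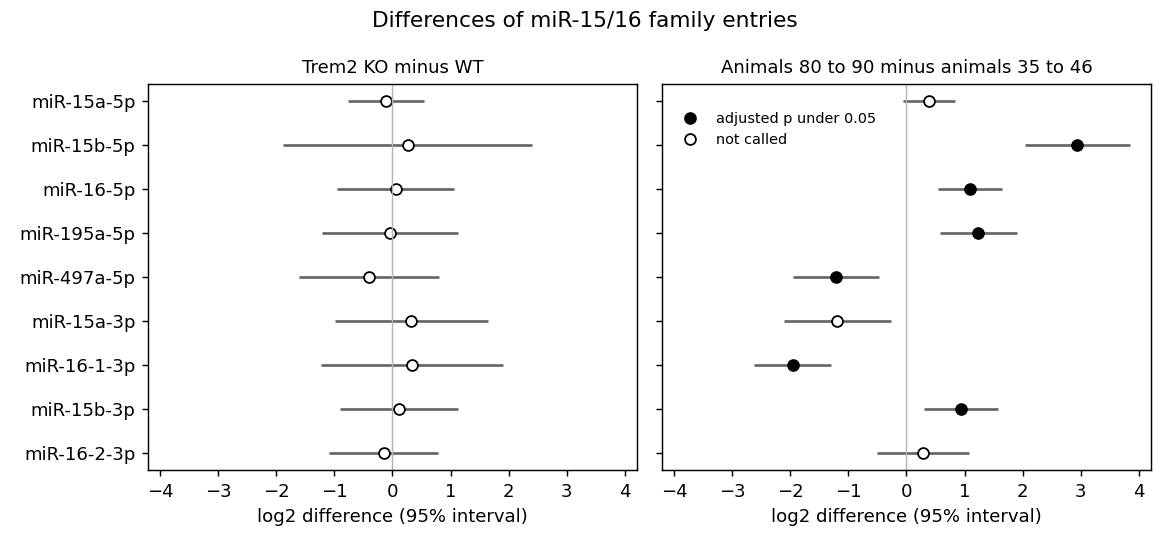
Log2 difference and 95% interval of each tested family entry between KO and WT (left) and between animals 80 to 90 and animals 35 to 46 (right), from edgeR fits; filled points have an adjusted p below 0.05. All 9 intervals on the left include 0, while on the right miR-15b-5p stands at 2.94 and miR-16-1-3p at -1.96.

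miR-15b-5p showed the widest gap of the family. It averaged 1936 ± 348 CPM in animals 80 to 90 and 252 ± 141 CPM in animals 35 to 46 (SD, n = 4 each), a ratio of 7.69. The log2 difference was 2.94 ± 0.40 (SE; edgeR adjusted p 0.000668), the 30th highest of the 627 entries. The lowest library of animals 80 to 90 had 1642 CPM and the highest of animals 35 to 46 had 431 CPM.

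miR-16-5p averaged 10021 ± 1767 CPM in animals 80 to 90 and 4661 ± 1236 CPM in animals 35 to 46, with no overlap. The log2 difference was 1.10 ± 0.25 (edgeR adjusted p 0.00766), and it ranked 143rd from the top. miR-195a-5p, which shares most of its sequence with miR-16-5p, averaged 168 ± 20.7 CPM in animals 80 to 90 and 72.0 ± 24.8 CPM in animals 35 to 46, a log2 difference of 1.23 ± 0.30 (edgeR adjusted p 0.0110). In every library of animals 80 to 90 it lay at or above 149.8 CPM, and no library of animals 35 to 46 passed 102 CPM.

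miR-497a-5p, the hairpin neighbour of miR-195a, went the other way. It had 23.8 and 55.5 CPM in KO animals 88 and 90, 36.0 and 44.5 CPM in WT animals 80 and 82, 80.7 and 71.8 CPM in KO animals 40 and 46, and 102 and 123 CPM in WT animals 35 and 37. All libraries of animals 80 to 90 were below all those of animals 35 to 46, at a log2 difference of -1.21 ± 0.33 (edgeR adjusted p 0.0194). This call was lost without KO animal 40, WT animal 35 or WT animal 37, with edgeR adjusted p of 0.0654, 0.0596 and 0.0911.

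miR-15a-5p was the abundant member that moved least. It averaged 2163 ± 342 CPM in animals 80 to 90 and 1658 ± 275 CPM in animals 35 to 46, and the ranges overlapped. The log2 difference of 0.39 ± 0.20 did not pass (edgeR adjusted p 0.155), although it did when libraries were scaled by their totals alone (edgeR adjusted p 0.0391). That scaling moved the median difference of all entries by 0.20 log2 units.

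Among the 3p arms, miR-16-1-3p had the largest drop. It had 26.7 and 56.8 CPM in KO animals 88 and 90 and 37.2 and 27.3 CPM in WT animals 80 and 82, against 169.7 and 149 CPM in KO animals 40 and 46 and 123 and 133 CPM in WT animals 35 and 37. The ranges were far apart, and the log2 difference was -1.96 ± 0.30 (edgeR adjusted p 0.00138).

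miR-15a-3p, from the neighbouring hairpin, averaged 26.2 ± 12.1 CPM in animals 80 to 90 and 59.5 ± 12.5 CPM in animals 35 to 46. Its log2 difference was -1.19 ± 0.41, and its adjusted p of 0.0522 by edgeR missed the threshold although the levels did not overlap. DESeq2 gave an adjusted p of 0.0405 and limma-trend 0.0370, both below it. The edgeR adjusted p was 0.0475 with scaling by library totals and 0.0148 without WT animal 80. It stayed above the threshold with median-of-ratios size factors (0.0716), no filter on low counts (0.0894), at least 10 counts in 4 libraries (0.0557) and merged identical sequences (0.0613). Leaving out any library other than WT animal 80 also kept it above, at 0.0598 to 0.161.

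Of the 3p arms of the Smc4 pair, miR-15b-3p averaged 124 ± 33.1 CPM in animals 80 to 90 and 64.6 ± 8.21 CPM in animals 35 to 46, a log2 difference of 0.94 ± 0.28 (edgeR adjusted p 0.0296). This call rested on the full set: it was lost when any 1 of 7 libraries was left out, with edgeR adjusted p of 0.0558 to 0.101, and held only without WT animal 82. miR-16-2-3p averaged 28.1 ± 6.41 CPM in animals 80 to 90 and 23.4 ± 5.21 CPM in animals 35 to 46, a log2 difference of 0.28 ± 0.35 that did not pass (edgeR adjusted p 0.577). The 95% intervals, 0.30 to 1.58 for miR-15b-3p and -0.51 to 1.07 for miR-16-2-3p, overlapped, and the difference between these arms was not tested.

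Each tested family entry had the same sign of difference between the ranges in KO mice as in WT mice. For miR-15b-5p the log2 difference was 3.31 in KO alone and 2.60 in WT alone. For miR-16-1-3p it was -1.89 in KO alone and -1.99 in WT alone, and for miR-16-5p it was 1.24 in KO alone and 1.00 in WT alone. These fits had 2 libraries a side. They called 98 of 655 tested entries in KO, or 15.0%, and 2 of 671 in WT, or 0.298%. Of the family, miR-15b-5p and miR-16-1-3p passed in KO alone, and 0 of the 9 passed in WT alone.

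**Figure D3:**
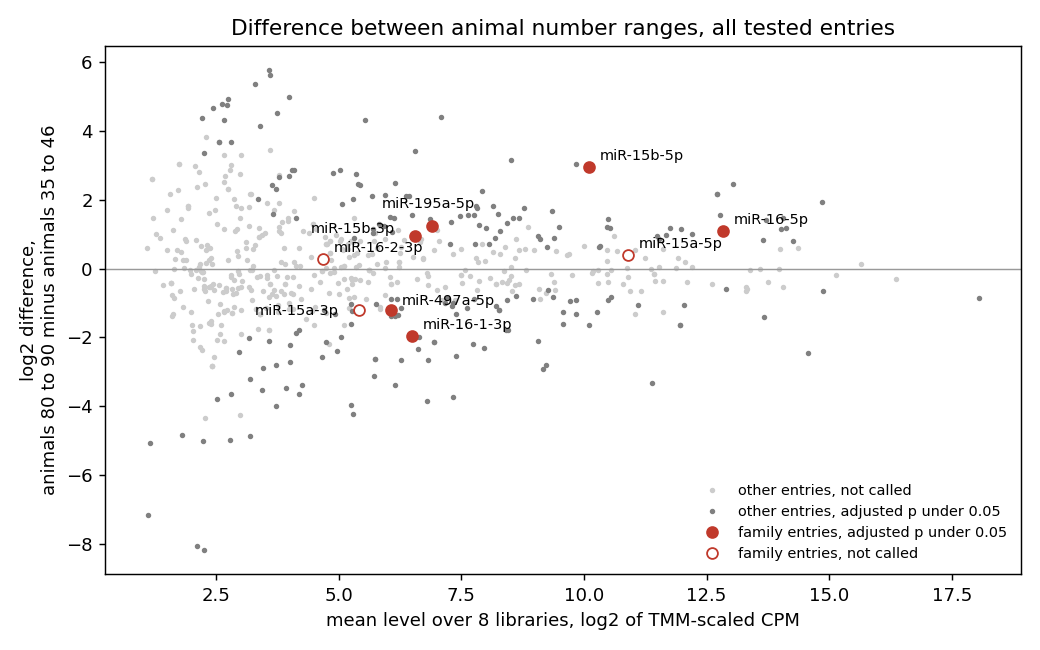
Log2 difference between animals 80 to 90 and animals 35 to 46 (vertical axis) against the log2 of the mean TMM-scaled CPM over 8 libraries (horizontal axis) for all 627 tested entries; family entries are red, filled where the adjusted p was below 0.05. Points spread more widely at low levels, and miR-15b-5p at 2.94 lies near the upper edge of entries of its abundance.

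The order of levels within the family differed between the ranges. In animals 80 to 90, miR-15a-5p and miR-15b-5p averaged 2163 ± 342 and 1936 ± 348 CPM. In each of these libraries miR-15b-5p was the lower, at a ratio to miR-15a-5p of 0.733 to 0.997. In animals 35 to 46, miR-15a-5p and miR-15b-5p stood at 1658 ± 275 and 252 ± 141 CPM, far apart. miR-16-1-3p had 26.7 to 56.8 CPM in animals 80 to 90, below miR-195a-5p and miR-15b-3p, and averaged 144 ± 20.5 CPM in animals 35 to 46, above both. There miR-195a-5p, miR-15b-3p and miR-15a-3p averaged 72.0, 64.6 and 59.5 CPM, and their order was not the same in every library.

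Ratios between members within a library do not depend on scaling between libraries, and 9 were formed from counts with a pseudocount of 0.5. An exact two-sided permutation test over 70 assignments found 0 of 9 differing between KO and WT, with a smallest exact p of 0.257. Between the ranges 8 of 9 differed, each with an exact permutation p of 0.0286, the smallest that 4 against 4 libraries allow, and an adjusted p of 0.0321 over the 9 ratios. In these 8, the 4 libraries of animals 80 to 90 did not overlap the other 4. The tests by range were chosen after seeing the data, so their p values describe these ratios and do not set the family apart. The share over ratios of other entries was not computed, and 41.1% of single entries did not overlap between the ranges. Several ratios share a member, so they are not independent of each other.

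The ratio of miR-16-5p to miR-16-1-3p showed the widest shift. It was 346, 204, 305 and 287 in KO animals 88 and 90 and WT animals 80 and 82, against 33.2, 22.8, 47.1 and 28.5 in KO animals 40 and 46 and WT animals 35 and 37. The mean log2 difference was 3.14, and it was 3.27 in KO alone and 3.02 in WT alone. Because miR-16-5p comes from both loci, this ratio mixes them.

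The arm ratios of single hairpins moved the same way. miR-15b-5p over miR-15b-3p lay between 11.7 and 21.2 in animals 80 to 90 and between 2.05 and 6.19 in animals 35 to 46, a log2 difference of 2.20. miR-15a-5p over miR-15a-3p lay between 68.9 and 184 in animals 80 to 90 and between 16.8 and 37.6 in animals 35 to 46, a log2 difference of 1.71. In each of these hairpins the 5p arm made up a larger part relative to its 3p arm in animals 80 to 90.

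Ratios between 5p arms also differed. miR-15b-5p over miR-15a-5p lay between 0.733 and 0.997 in animals 80 to 90 and between 0.0757 and 0.223 in animals 35 to 46. miR-195a-5p over miR-497a-5p lay between 3.52 and 6.45 in animals 80 to 90 and between 0.519 and 1.00 in animals 35 to 46. Counts of miR-195a-5p exceeded those of miR-497a-5p in all 4 libraries of animals 80 to 90, and did not exceed them in any library of animals 35 to 46.

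miR-195a-5p over miR-16-5p was the ratio that did not differ, with 0.0132 to 0.0218 in animals 80 to 90 and 0.0127 to 0.0177 in animals 35 to 46 (exact permutation p 0.571). Its members differ in sequence by the substitutions G10A and T11G and come from different chromosomes.

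**Figure D4:**
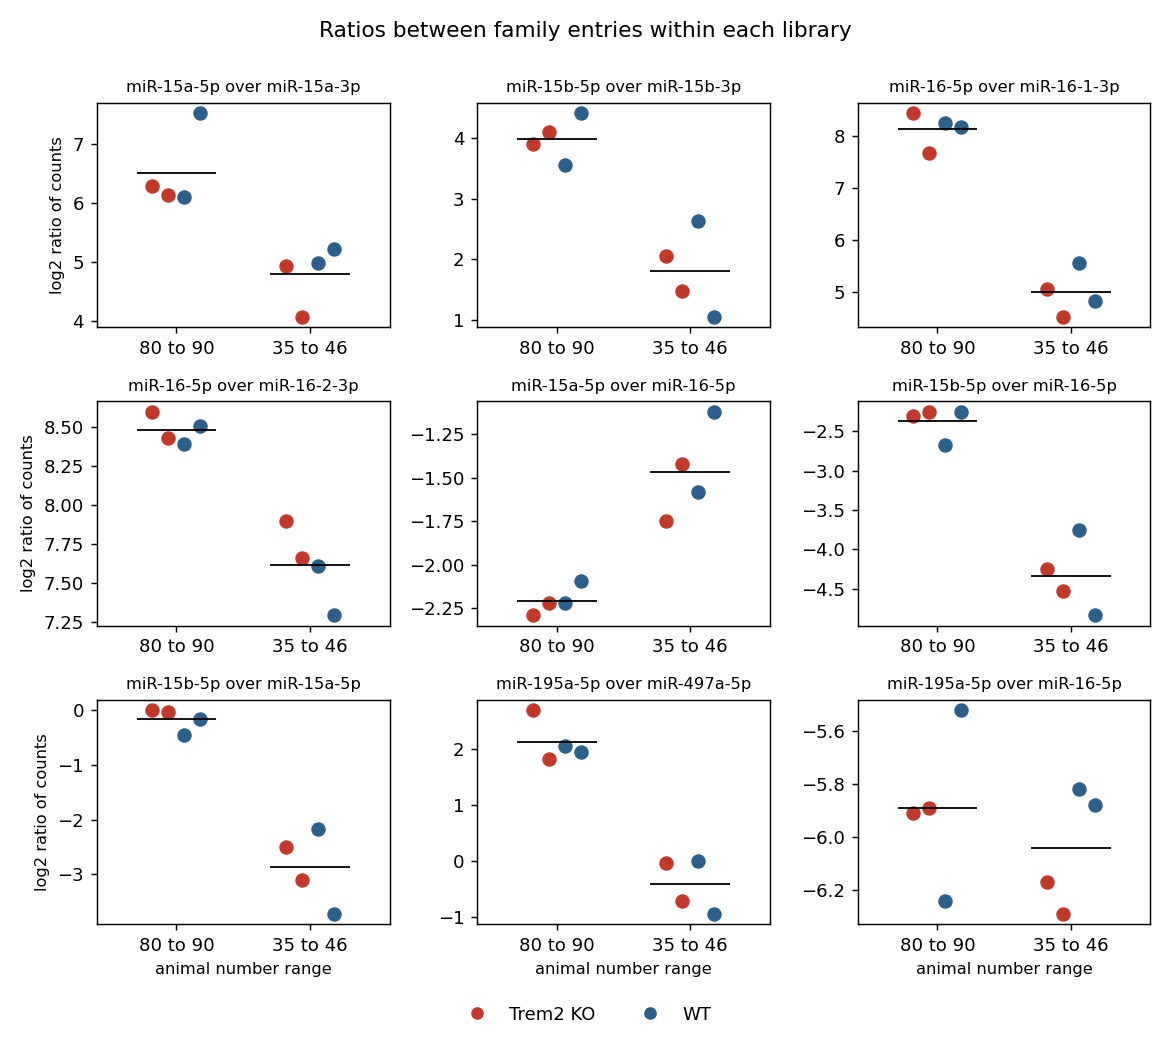
Log2 ratios of counts between family entries within each library, with 1 point per library coloured by genotype (KO red, WT blue), animals 80 to 90 on the left and animals 35 to 46 on the right; the bar is the mean of 4 libraries. The ranges separate in 8 of the 9 panels, all but miR-195a-5p over miR-16-5p, and KO and WT overlap in every panel over the 8 libraries.

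Other values moved with the number ranges too. The summed level of 5 erythroid entries was 644 to 2513 CPM in animals 80 to 90 and 5056 to 7381 CPM in animals 35 to 46, and none of these entries was at 0 throughout a range. Of that sum, miR-451a, an erythroid microRNA, averaged 547 ± 402 CPM in animals 80 to 90 and 4790.0 ± 886 CPM in animals 35 to 46. By edgeR, 2 of the 5 were called lower and 0 higher in animals 80 to 90, and miR-144-5p and miR-486b-3p had log2 differences of 0.44 and 1.43. Stellate or mesenchymal entries summed to 3724 to 4256 CPM in animals 80 to 90 and 6335 to 8872 CPM in animals 35 to 46. Of these 9 entries 3 were called lower and 1 higher, miR-214-3p at a log2 difference of 2.10. The lymphocyte marker miR-150 went the other way to both sums, with 215 to 520.3 CPM in animals 80 to 90 and 46.5 to 147 CPM in animals 35 to 46.

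The 12 myeloid entries moved in both directions: edgeR called 4 higher and 4 lower in animals 80 to 90, and 4 did not pass. Among those higher were miR-142a-5p, with 21060.0 to 30235 CPM in animals 80 to 90 and 11664 to 16794 CPM in animals 35 to 46, miR-223-3p at a log2 difference of 1.01 and miR-342-3p at 1.47. Those lower were miR-21a-5p at a log2 difference of -0.86, miR-21a-3p at -2.80, miR-146a-3p at -1.38 and miR-511-3p at -0.63. Arms of the same hairpin could differ: miR-511-5p was called higher at 1.06, and miR-142a-3p stood at -0.64 (edgeR adjusted p 0.0637). miR-21a-5p had the highest mean of the list, 271425 CPM, and weighs most in the list's sum. That sum was 245069 to 419474 CPM in animals 80 to 90 and 421060.3 to 550188 CPM in animals 35 to 46.

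Hepatocyte entries summed to 9142 to 14222 CPM in animals 80 to 90 and 12219 to 139440.5 CPM in animals 35 to 46, with WT animal 37 the highest. The hepatocyte list had 1 entry of 11 at 0 in all animals 80 to 90. Endothelial entries summed to 13564 to 18951 CPM in animals 80 to 90 and 12254 to 19222 CPM in animals 35 to 46, and epithelial entries to 424 to 734 CPM in animals 80 to 90 and 251 to 452 CPM in animals 35 to 46. The part of these cell types in the family's differences was not tested.

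Outside the members, 6 entries carried the same seed, among them miR-322-5p. Of the 6, 3 were end variants of miR-16-5p, shown here because they hold its first 19 or 20 bases and then differ only at the 3′ end. Capitals mark the bases that are not in miR-16-5p, and the sequences are those of the deposited table.

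miR-16-5p variant ending in A: tagcagcacgtaaatattggA

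miR-16-5p variant ending in AA: tagcagcacgtaaatattggAA

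miR-16-5p variant ending in AA after base 19: tagcagcacgtaaatattgAA

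None of the 3 sequences was found in any of 1005 RefSeq mouse hairpins. Together they equalled 9.61%, 8.39%, 8.06% and 8.17% of miR-16-5p in KO animals 88 and 90 and WT animals 80 and 82, against 3.87%, 5.40%, 4.96% and 3.96% in KO animals 40 and 46 and WT animals 35 and 37. The ranges did not overlap, whereas the KO libraries at 3.87% to 9.61% and the WT libraries at 3.96% to 8.17% did.

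The variant ending in A averaged 440.4 ± 60.2 CPM in animals 80 to 90 and 125 ± 40.3 CPM in animals 35 to 46. The variant ending in AA averaged 402 ± 89.3 CPM in animals 80 to 90 and 84.7 ± 19.3 CPM in animals 35 to 46. Their ratios of means, 3.53 and 4.75, stood beside 2.15 for miR-16-5p itself, a gap that was not tested. The shortest variant had 0 counts in 3 of the 4 libraries of animals 35 to 46 and 6 counts in KO animal 40. It had between 43 and 99 counts in each library of animals 80 to 90. Its levels were 9.93 to 15.7 CPM in animals 80 to 90 and 0 to 1.81 CPM in animals 35 to 46. All 3 were called higher in animals 80 to 90 by edgeR, with adjusted p of 0.00129, 0.000335 and 0.00806 in the order shown. Of all tested entries 16.6% were called higher. The 3 are end variants of miR-16-5p, which was itself called higher.

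The wider group of related microRNAs adds miR-322, miR-503, miR-103 and miR-107, which share all or part of the seed motif. It had 7 mouse-named entries, all tested, among them the opposite arms miR-322-3p, miR-503-3p and miR-103-2-5p, which have other seeds. By edgeR, 0 of the 7 and 0% of all tested entries were called between KO and WT. Between the ranges 0 of the 7 were called, against 32.4% of all tested entries. There 3 had an unadjusted p below 0.05, namely miR-322-3p, miR-503-3p and miR-107-3p. The median log2 difference of the 7 between the ranges was 0.57, against 0.39 for the family and -0.04 for all tested entries. Of the 7, 5 were above 0 and 2 below, miR-322-5p at -0.05 and miR-503-5p at -0.21. In the same group 4 entries had names from other species, of which 2 were tested and 0 called in either comparison.

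miR-322-5p, which has the family seed and is encoded on the X chromosome, averaged 441 ± 112 CPM in animals 80 to 90 and 460.2 ± 90.9 CPM in animals 35 to 46. miR-322-3p, its other arm, averaged 531 ± 87.7 CPM in animals 80 to 90 and 355 ± 52.6 CPM in animals 35 to 46, with an edgeR adjusted p of 0.0598. The levels of miR-322-3p did not overlap between the ranges, as for 41.1% of all tested entries. miR-103-3p averaged 3733 ± 1325 CPM in animals 80 to 90 and 2495 ± 274 CPM in animals 35 to 46. The miR-107-3p entry is uncertain, since its deposited sequence, shorter by 2 bases than the mature form, is also held by the Mir103-1 and Mir103-2 hairpins.

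Outside the family, the mouse-named entries whose profile over the 8 libraries was most like that of miR-16-5p were sought among the 171 such entries that averaged 100 CPM or more. The measure was the root mean square distance of log2 levels, each centred on its own mean. The 5 nearest were miR-23b-3p at 0.11, miR-223-3p at 0.14, miR-26a-5p at 0.16, and let-7f-5p and let-7c-5p at 0.19 each, against a median of 0.71 over the candidates. Within the family miR-15b-3p at 0.22 and miR-195a-5p at 0.24 were nearest to miR-16-5p, and miR-16-1-3p at 1.61 was the farthest. miR-15b-5p, at 1.04, was farther from miR-16-5p than the median candidate.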

How the data were processed

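Small RNA libraries of sorted Kupffer cells from 4 Trem2 KO and 4 WT mice were analysed; the titles number each animal separately. The authors' deposited table gave raw columns with expected counts per entry, of which 12% of values were not whole within 1e-06, and normalized columns with a signal equal to the raw value times 1 factor per library. The aligner, database and genome build were not given in the sources used here. No column was left without a sample.

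Expected counts were rounded. Entries were filtered with filterByExpr and fitted with edgeR 4.0.16 (R 4.3.3), using TMM factors, the quasi-likelihood test and Benjamini-Hochberg adjustment over all 627 entries at 0.05. Standard errors come from the F statistic. DESeq2 1.42.0 and limma 3.58.1 (limma-trend, on the deposited normalized signal as log2 of value + 1) were alternatives, as were other filters and scalings, merged identical sequences, a range block and leaving out each library. Animal number ranges were read from the titles. Range fits in each genotype alone and ratios by range were chosen after seeing the data. Ratios were tested with scipy 1.17.1, for pairs of entries with a mean of at least 10 counts each.

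Every entry matching the family stems is accounted for; the other named entries are the wider group of miR-322, miR-424, miR-503, miR-103 and miR-107, entries with the family seed, the 5 nearest profiles and cell type marker lists. The members and lists were chosen with earlier results of these data known. Sequences are from RefSeq (GRCm38.p6) and host genes from GENCODE M21; all 10 members matched a RefSeq mature entry.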

Additional observations from a re-analysis of the deposited data

Results flagged for a closer look

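Within groups of 4 libraries, 72 groups of family values were examined for a library standing apart, by the gap to its nearest neighbour as a share of the group's range (critical value 0.829). Of these 2 passed, against 3.60 that chance gives at 1 in 20.

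The log2 ratio of miR-15a-5p to miR-15a-3p in animals 80 to 90 had a gap share of 0.872: WT animal 82 stood at 7.52, and the others at 6.29, 6.13 and 6.11. In that library miR-15a-3p had 9.93 CPM, against 24.1 to 35.5 CPM in the other 3.

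The log2 ratio of miR-15b-5p to miR-16-5p in animals 80 to 90 had a gap share of 0.883: WT animal 80 stood at -2.67, and the others between -2.30 and -2.25.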

How the results depend on the processing

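No paired analysis was possible because the KO and WT animals share no replicate number. No family entry passed between KO and WT under any alternative, and edgeR or another tool called 0 of all entries each time. Signs of these log2 differences were not stable. In animals 35 to 46 alone they turned to -0.28 for miR-15b-5p, -0.02 for miR-16-5p and -0.04 for miR-15b-3p, and in animals 80 to 90 alone to 0.06 for miR-15a-5p, 0.14 for miR-195a-5p and 0.07 for miR-16-2-3p. Leaving out 1 library gave -0.01 to 0.65 for miR-15a-3p, -0.30 to 0.00 for miR-15a-5p, -0.13 to 0.47 for miR-15b-3p, -0.36 to 0.68 for miR-15b-5p, -0.02 to 0.70 for miR-16-1-3p, -0.24 to 0.35 for miR-16-5p and -0.41 to 0.20 for miR-195a-5p. For log2 ratios between KO and WT it gave -0.33 to 0.05 for miR-15a-5p over miR-16-5p, -0.49 to 0.78 for miR-15b-5p over miR-15a-5p, -0.65 to 0.48 for miR-15b-5p over miR-15b-3p, -0.44 to 0.45 for miR-15b-5p over miR-16-5p, -0.96 to 0.35 for miR-16-5p over miR-16-1-3p, -0.02 to 0.38 for miR-16-5p over miR-16-2-3p and -0.41 to 0.72 for miR-195a-5p over miR-497a-5p.

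Between the ranges, no family entry changed direction under any alternative. The count of entries called was 203 of 627 tested, or 32.4%. With 1 library left out it ran from 129 of 701 (18.4%), without WT animal 37, to 222 of 633 (35.1%), without WT animal 80. It was 98 of 655 (15.0%) in KO alone and 2 of 671 (0.298%) in WT alone, where fits had 4 libraries. Every setting without 1 library gave 0 to 0 ratios called by range. The two-sided permutation test as run doubles the smaller tail, and its exact p cannot fall below 0.0571 with 4 against 3 libraries. An adjusted p of 0.05 was out of its reach, so this says nothing about stability. Depth limits miR-195a-3p, at 0 to 25 counts per library.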

Other observations

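An entry named after miR-15b-5p of another species held the miR-15b-5p sequence with 2 more bases at its 5′ end, which places other bases at positions 2 to 8. It had 0, 56, 0 and 0 counts in KO animals 88, 90, 40 and 46, against 33, 5, 0 and 5 counts in WT animals 80, 82, 35 and 37.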
